A study of Mus musculus with 8 samples.

Results

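The proteasome subunit and assembly genes were taken by name from the gene expression table, as every symbol that starts with Psma, Psmb, Psmc, Psmd, Psme or Psmg followed by a digit. This gave 49 of the 20484 genes listed. They comprised 15 genes of the constitutive core particle, 3 immunoproteasome genes (Psmb8, Psmb9 and Psmb10), 17 genes of the regulatory particle, 5 alternative activators and 7 assembly genes. The other two were Psmb11, the core subunit of the thymus, and Psmc3ip, which the name rule picks up although it encodes a recombination factor and no proteasome subunit. The rule uses names and no measured value, but it was set with earlier results of these data known.

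RNA was sequenced from RN2 cells, an engineered mouse acute myeloid leukaemia line of C57BL/6J background that carries the MLL-AF9 fusion and mutant NRAS in all groups. Each of the 4 groups had 2 libraries labelled as biological replicates, from cells given the solvent DMSO or one of the compounds RVX-208, OTX-015 and BBC1115. BET proteins are readers of acetylated histones with paired bromodomains; OTX-015 (birabresib) inhibits them through either domain, and RVX-208 (apabetalone) mainly through the second. BBC1115 is known here by that code alone. The sources used here give neither dose nor duration of treatment, so whether the compounds were matched for dose is unknown, and the findings stand for a single cell line.

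The proteasome is the protease that degrades proteins tagged with ubiquitin. Its core particle is a barrel of stacked rings, in which outer alpha subunits (Psma genes) guard the entry and inner beta subunits (Psmb genes) include the cutting sites. A regulatory particle of ATPases (Psmc genes) and other subunits (Psmd genes) binds, unfolds and feeds in the substrate, the activators of the Psme genes open the barrel without ubiquitin, and the chaperones of the Psmg genes help to assemble the core. In blood cells and under interferon, Psmb8, Psmb9 and Psmb10 can replace the constitutive cutting subunits Psmb5, Psmb6 and Psmb7, which favours peptides for display on MHC class I. Blood cancers are treated with drugs that block the cutting site of the Psmb5 product.

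Values are RPKM, reads scaled by transcript length and by mapped reads, as deposited, so levels of different genes can be set side by side per length. Their totals per library ran from 375973 to 467673, and a depth of between 11000000 and 18000000 reads was estimated from the smallest values. The 2 DMSO libraries differed with transcript length: across 9738 genes, Spearman's rho between length and the log2 difference of replicate 1 from replicate 2 was -0.628 in DMSO and -0.545 in BBC1115, against -0.0442 in OTX-015 and 0.0604 in RVX-208, as a description. Proteasome transcripts are short, with a median of 1819 nucleotides for the longest annotated transcript against 3353 for all genes tested. Accordingly 40 of 47 stood higher in DMSO replicate 1 than in replicate 2, by a median of 0.20 on the log2 scale, whereas 45.7% of all genes did. Results are therefore given also without single libraries and with a trend on length removed. Markers of myeloid leukaemia cells were all present (Ptprc, Spi1, Mpo, Kit, Itgam and Cebpe), and their summed level was 672 and 689 RPKM in DMSO, 650 and 660 in RVX-208, 363 and 413 in OTX-015 and 286 and 294 in BBC1115. Their part in the changes below was not tested, and loss of cells of a given kind and less RNA per cell cannot be told apart in such bulk samples. Markers of T cells, B cells, erythroid cells and fibroblasts summed to at most 0.608 RPKM per list in any library.

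Of the 49 genes, 47 passed the filter of 1 RPKM in 2 libraries, and each of the 47 stood at 3.88 RPKM or more in every library, so none passed through a single group. Psma8, the alpha subunit of the testis, was listed at 0 in every library, and Psmb11 did not exceed 0.0634 RPKM. The 47 genes together made up 1.21% and 1.17% of the RPKM total in the DMSO libraries and 1.17% in both RVX-208 libraries. They made up 1.07% and 1.06% with OTX-015 and 0.941% and 0.923% with BBC1115. Both OTX-015 and both BBC1115 libraries thus lay below all DMSO and RVX-208 libraries, in a share that does not depend on the scaling between libraries.

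**Figure D1:**
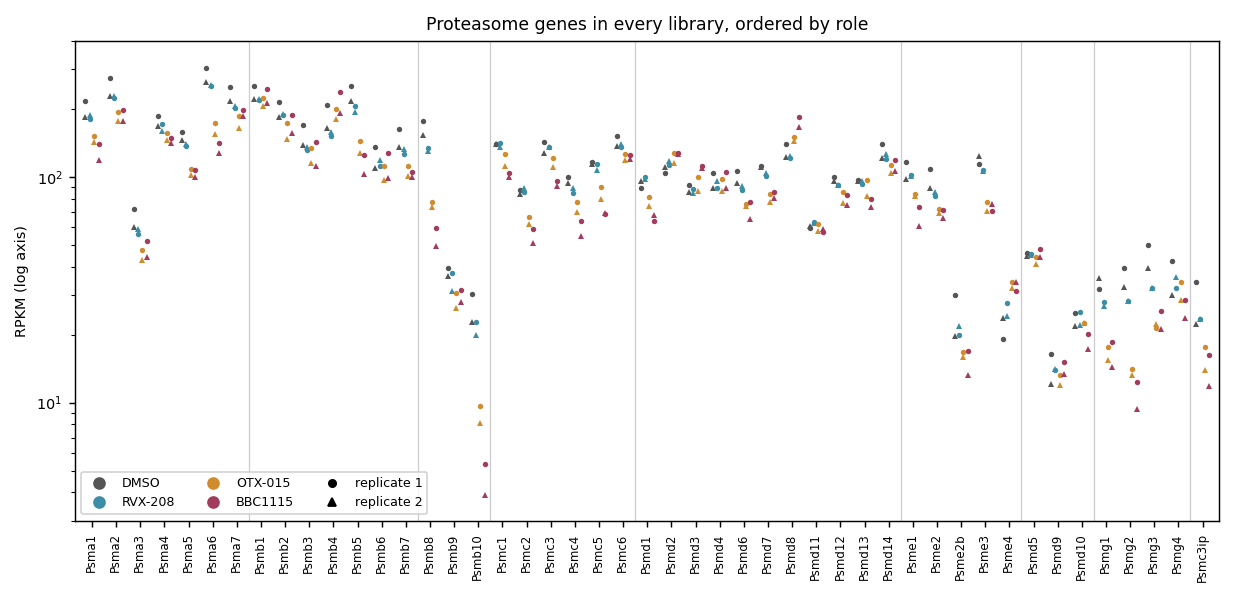
RPKM (log axis) of each of the 47 proteasome genes in every library, ordered by role; colours mark the 4 groups and symbols the 2 replicates, and grey lines separate the roles. Psmb10 shows the widest spread, from 30.4 RPKM in DMSO to 3.88 RPKM in BBC1115, while the subunits of the regulatory particle lie between 51 and 184 RPKM.

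With OTX-015, 32 of the 47 genes fell and 1 rose against DMSO (limma, Benjamini-Hochberg adjusted p under 0.05 over all 9975 genes tested). Among all genes 40% fell and 24.2% rose. With BBC1115, 33 fell and 4 rose, where 49.3% of all genes fell and 26.4% rose. The median log2 fold change of the 47 was -0.36 with OTX-015 and -0.44 with BBC1115, beside -0.134 and -0.249 for all genes. These counts depended on the scaling between libraries. After upper-quartile scaling, which moved the median of all genes to 0.035 and -0.018, 20 fell and 5 rose with OTX-015, where 30.7% of all genes fell and 35.7% rose. With BBC1115, 22 fell and 9 rose under that scaling, where 39.7% of all genes fell and 37.5% rose. After quantile normalization 19 fell and 8 rose with OTX-015 (32% and 36.5% of all genes), and 27 fell and 8 rose with BBC1115 (38.5% and 39%). As TPM 21 fell and 5 rose with OTX-015 (29.7% and 33.7% of all genes). With OTX-015 the count of falls was 20 without OTX-015 replicate 2, 23 without DMSO replicate 1 and 25 with the length trend removed, where 31.2%, 37.2% and 41.7% of all genes fell.

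A smaller set of calls was made under the main setting and all 16 alternatives. With OTX-015 it held 18 falls and the rise of Psme4, and with BBC1115 it held 22 falls and the rises of Psme4, Psmd8 and Psmd3. The 22 falls include Psmc3ip, which encodes no proteasome subunit. The share of all genes called under every setting was not computed, so these counts have no background beside them. The comparisons of OTX-015 and BBC1115 with DMSO use the same DMSO libraries, so their calls are not independent of each other. With RVX-208, 0 genes rose and 0 fell by limma with Benjamini-Hochberg adjustment, where 0.0902% of all genes rose and 0.0802% fell. At an unadjusted p under 0.05, 1 rose and 5 fell with RVX-208, and 18.2% of all genes passed that limit in either direction. Without DMSO replicate 2, 1 rose and 6 fell with RVX-208, and 6.27% of all genes rose and 3.61% fell in that fit.

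**Figure D2:**
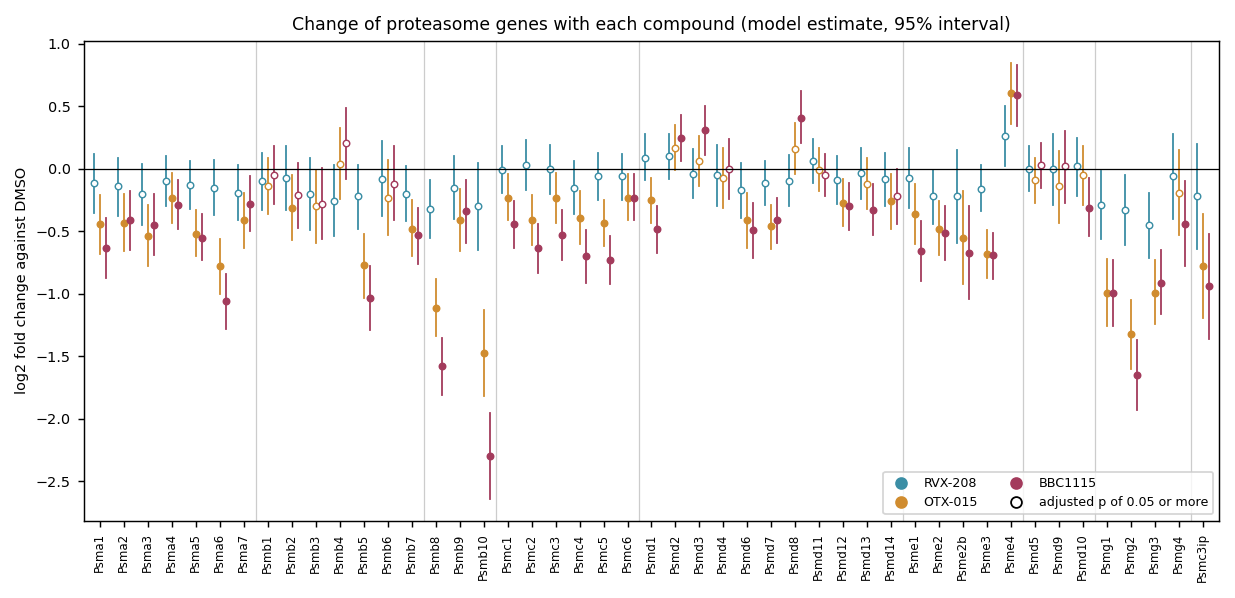
Log2 fold change against DMSO of each of the 47 genes with RVX-208, OTX-015 and BBC1115, from the linear model, with vertical lines for 95% intervals; open symbols did not pass an adjusted p of 0.05. The lowest points are Psmb10, Psmg2 and Psmb8, and Psme4 is the highest with OTX-015 and BBC1115.

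The 3 immunoproteasome genes all fell with OTX-015 and BBC1115, to very different degrees. Psmb8 takes the place of Psmb5, and Psmb10 that of Psmb7. Psmb8 measured 177 and 153 RPKM in DMSO and 134 and 130 RPKM with RVX-208. It stood at 77.5 and 73.6 RPKM with OTX-015 and at 59.5 and 49.4 RPKM with BBC1115. The groups did not overlap, and the order from DMSO to BBC1115 held in every library. The fall of Psmb8 was 2.18-fold with OTX-015 (165 ± 16.7 to 75.6 ± 2.78 RPKM, mean ± SD, n = 2 libraries a group here and below; log2 fold change -1.11, 95% interval -1.34 to -0.88, limma adjusted p = 5.2e-06). With BBC1115 it was 3.03-fold, to 54.5 ± 7.15 RPKM (log2 fold change -1.58, limma adjusted p = 1.32e-07).

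Psmb10 had the largest fall of the 47 genes in both comparisons. Its values were 30.4 and 22.8 RPKM in DMSO, 22.8 and 19.9 RPKM with RVX-208, 9.62 and 8.13 RPKM with OTX-015, and 5.37 and 3.88 RPKM with BBC1115. OTX-015 and BBC1115 libraries lay below all others, and BBC1115 below OTX-015. Psmb10 fell 3-fold with OTX-015 (26.6 ± 5.36 to 8.88 ± 1.06 RPKM, log2 fold change -1.47, 95% interval -1.82 to -1.13, limma adjusted p = 1.39e-05). It fell 5.76-fold with BBC1115, to 4.62 ± 1.05 RPKM (log2 fold change -2.30, 95% interval -2.64 to -1.95, limma adjusted p = 1.84e-07).

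Psmb9, the inducible counterpart of Psmb6, moved far less. It stood at 39.6 and 36.3 RPKM in DMSO, 37.3 and 31.1 RPKM with RVX-208, 30.7 and 26.1 RPKM with OTX-015 and 31.5 and 28 RPKM with BBC1115. The OTX-015 and BBC1115 libraries lay below those of DMSO, but the lower RVX-208 library lay between the BBC1115 libraries. The log2 fold change was -0.41 with OTX-015 (limma adjusted p = 0.00882) and -0.34 with BBC1115 (limma adjusted p = 0.0174). Both calls of Psmb9 were lost after upper-quartile scaling and quantile normalization. The call with OTX-015 was also lost as TPM and without OTX-015 replicate 2, and the call with BBC1115 without DMSO replicate 1 and without BBC1115 replicate 2.

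In the mm10 assembly Psmb8 lies on chromosome 17 from 34197721 to 34201454 and Psmb9 near it from 34181987 to 34187764, in the MHC region, while Psmb10 lies on chromosome 8 from 105935735 to 105938444. Psmb9 runs head to head with Tap1, a subunit of the peptide transporter, with which it shares 212 exon bases on the opposite strand, and Psmb8 shares 498 with an antisense gene. No strand setting is stated for the authors' counting, so reads of these pairs may not be told apart.

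The constitutive counterparts also differed. Psmb5, the cutting subunit blocked by proteasome drugs, stood at 252 and 216 RPKM in DMSO, 205 and 194 RPKM with RVX-208, 144 and 128 RPKM with OTX-015 and 125 and 103 RPKM with BBC1115. All treated libraries lay below both DMSO libraries. Psmb5 fell 1.72-fold with OTX-015 (log2 fold change -0.77, limma adjusted p = 0.000153) and 2.05-fold with BBC1115 (log2 fold change -1.03, limma adjusted p = 8.76e-06). Psmb7 stood at 163 and 136 RPKM in DMSO, 126 and 132 RPKM with RVX-208, 112 and 101 RPKM with OTX-015 and 105 and 99.4 RPKM with BBC1115. It fell 1.4-fold with OTX-015 and 1.46-fold with BBC1115 (limma adjusted p = 0.00174 and 0.000546). It shares 405 exon bases with Nek6 on the opposite strand. Psmb6 stood at 135 and 109 RPKM in DMSO, 112 and 118 RPKM with RVX-208, 111 and 96.3 RPKM with OTX-015 and 128 and 98.5 RPKM with BBC1115. Its groups overlapped, and the log2 fold change of Psmb6 was -0.23 with OTX-015 (95% interval -0.53 to 0.07, limma adjusted p = 0.155) and -0.12 with BBC1115 (95% interval -0.41 to 0.18, limma adjusted p = 0.455).

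Ratios within a library do not depend on the scaling between libraries. Psmb8 amounted to 70.1% and 71% of Psmb5 in DMSO, 65.2% and 66.8% with RVX-208, 53.9% and 57.4% with OTX-015 and 47.7% and 48.1% with BBC1115. Psmb10 amounted to 18.7% and 16.9% of Psmb7 in DMSO, 18% and 15.1% with RVX-208, 8.59% and 8.01% with OTX-015 and 5.09% and 3.9% with BBC1115. Psmb9 amounted to 29.3% and 33.2% of Psmb6 in DMSO, 33.3% and 26.3% with RVX-208, 27.6% and 27.1% with OTX-015 and 24.7% and 28.4% with BBC1115. For the first pair the 4 groups did not overlap. For Psmb10 the OTX-015 and BBC1115 libraries lay below the rest, and for Psmb9 both lay below DMSO but overlapped with RVX-208. The log2 ratio of Psmb8 to Psmb5 changed by -0.34 with OTX-015 and -0.56 with BBC1115 against a pooled SD of 0.04 between libraries. That of Psmb10 to Psmb7 changed by -1.10 and -1.99 against 0.17, and that of Psmb9 to Psmb6 by -0.19 and -0.24 against 0.15. The ratios are given as a description, with no test, and were not computed with the length trend removed. Differences between libraries that follow transcript length remain in them, and the pairs differ in length (2884 nucleotides for Psmb9, 966 for Psmb6). With that trend removed, log2 fold changes with OTX-015 were -0.37 for Psmb9 and 0.00 for Psmb6. They were -1.27 for Psmb10 and -0.43 for Psmb7, and -0.97 for Psmb8 and -0.53 for Psmb5. An exact two-sided permutation test of 2 libraries against 2 cannot give a p below 0.333.

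**Figure D3:**
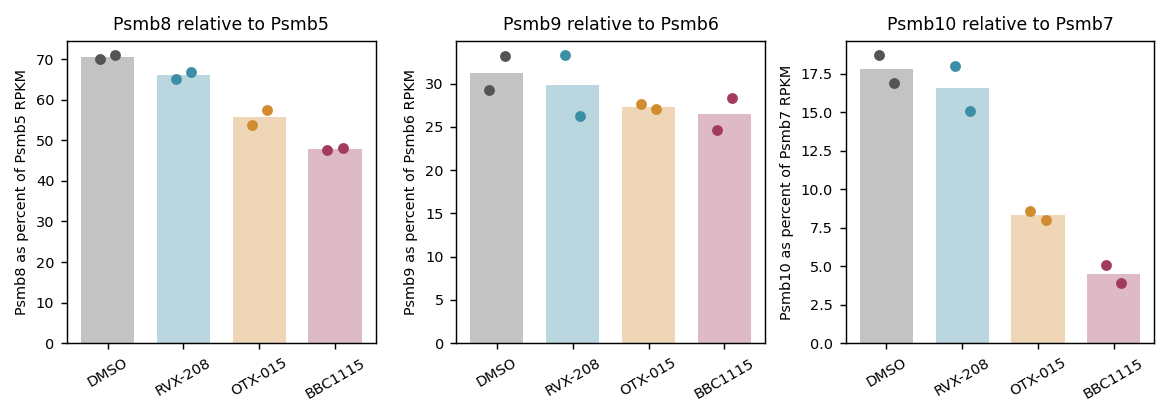
RPKM of each immunoproteasome gene as a percentage of the RPKM of its constitutive counterpart; points are the 2 libraries of a group and bars their mean, from 0. Psmb8 relative to Psmb5 runs from 71% in DMSO to 47.7% in BBC1115, Psmb10 relative to Psmb7 from 18.7% to 3.9%, and Psmb9 relative to Psmb6 stays between 24.7% and 33.3%.

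Sequences upstream of 4 of these and related genes are shown because Psmb5 and Psmb6 changed differently while sharing a motif, and Psmb10 and Psme3 both fell and share another. They are from RefSeq on GRCm38.p6, the assembly of mm10, each reading 5′ to 3′ on the gene's strand within the 250 bases before its RefSeq start, without bases that GENCODE M21 places in an exon. Capitals mark TGACNNNGC (the core of the antioxidant response element, which NFE2L1 and NFE2L2 bind), CACGTG (the E-box that MYC and MAX bind) and CCGGAAG (bound by ETS factors), searched on both strands. A match is a description of letters and no evidence of binding.
Psmb5 chr14:54618023-54618245 (-): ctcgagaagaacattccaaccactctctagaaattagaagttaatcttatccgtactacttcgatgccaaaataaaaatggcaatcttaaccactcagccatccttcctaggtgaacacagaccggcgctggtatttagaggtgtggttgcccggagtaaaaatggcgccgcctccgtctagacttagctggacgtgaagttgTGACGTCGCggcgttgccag
Psmb6 chr11:70525107-70525356 (+): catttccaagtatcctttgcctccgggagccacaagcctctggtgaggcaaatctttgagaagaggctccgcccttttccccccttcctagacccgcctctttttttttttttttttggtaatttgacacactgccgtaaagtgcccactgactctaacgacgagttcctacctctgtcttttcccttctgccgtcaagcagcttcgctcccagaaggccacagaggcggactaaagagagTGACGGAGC
Psmb10 chr8:105938445-105938642 (-): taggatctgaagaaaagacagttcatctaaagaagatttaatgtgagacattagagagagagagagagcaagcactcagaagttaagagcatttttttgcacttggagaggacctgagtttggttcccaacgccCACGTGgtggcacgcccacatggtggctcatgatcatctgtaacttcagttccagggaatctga
Psme3 chr11:101315963-101316212 (+): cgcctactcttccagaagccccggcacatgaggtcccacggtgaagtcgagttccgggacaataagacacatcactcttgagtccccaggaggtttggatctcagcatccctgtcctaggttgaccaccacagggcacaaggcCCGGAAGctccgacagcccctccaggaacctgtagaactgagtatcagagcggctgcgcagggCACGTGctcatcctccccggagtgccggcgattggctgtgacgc

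In the first 2 sequences the capitals are the antioxidant response element core, which begins 47 bases before the start of Psmb5 and 9 bases before that of Psmb6. In the third they are the E-box, 116 bases before the start of Psmb10. In the fourth they are the ETS motif, 107 bases before the start of Psme3, and then the E-box, 44 bases before it. No capital stretch overlapped another. Promoters of 41 of the 49 genes were matched by symbol, over 250 bases before and 50 after the start. Among them 6 held the antioxidant response element core (14.6%), against 14% of 27025 genes of all kinds. The E-box was found in 4 (9.76%, against 8.09%), the interferon-stimulated response element core in 5 (12.2%, against 3.99%) and the ETS motif in 15 (36.6%, against 9.93%). Besides Psmb5 and Psmb6, the antioxidant response element core was in the windows of Psmc6, Psmd12, Psmd9 and Psme4. In the values as deposited, Psme4 rose with both OTX-015 and BBC1115, Psmc6 and Psmd12 fell with both, and Psmd9 was called with neither. Besides Psmb10 and Psme3, the E-box was in the windows of Psma4 and Psmd9. Psma4 had log2 fold changes of -0.23 with OTX-015 and -0.29 with BBC1115, and Psmd9 was called with neither. The interferon motif was in the windows of Psmb3, Psmd4, Psmd9, Psme1 and Psmg4, and its letters were not in those of Psmb8, Psmb9 and Psmb10.

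The alpha ring fell in 7 of 7 genes tested both with OTX-015 (median log2 fold change -0.44) and with BBC1115 (median -0.45). Among all genes 40% and 49.3% fell. After upper-quartile scaling the medians of the alpha ring were -0.26 and -0.19. Under that scaling 6 of the 7 fell with OTX-015 and 3 with BBC1115, where 30.7% and 39.7% of all genes fell. After quantile normalization, as TPM and with the length trend removed, 6 fell with OTX-015 and 7 with BBC1115. The fall was largest in Psma6, at 302 and 262 RPKM in DMSO, 252 and 254 RPKM with RVX-208, 173 and 155 RPKM with OTX-015 and 141 and 128 RPKM with BBC1115. No library of OTX-015 or BBC1115 reached the level of DMSO or RVX-208, and BBC1115 lay below OTX-015. Psma6 fell 1.72-fold with OTX-015 (limma adjusted p = 5.44e-05) and 2.1-fold with BBC1115 (limma adjusted p = 2.3e-06). The other alpha genes had log2 fold changes between -0.23 and -0.54 with OTX-015 and between -0.28 and -0.63 with BBC1115, and Psma4 had the smallest with OTX-015. Alpha subunits enter the ring in equal numbers, yet levels per length ran from 66.1 ± 8.77 RPKM in Psma3 to 282 ± 27.9 RPKM in Psma6 in DMSO. The calls of 6 of the 7 with OTX-015 and of 3 with BBC1115 were made under all settings.

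The constitutive beta ring was less uniform, with 3 of 7 genes falling with OTX-015 (Psmb2, Psmb5 and Psmb7) and 2 with BBC1115 (Psmb5 and Psmb7). These shares, 42.9% and 28.6%, were near or below the 40% and 49.3% of all genes that fell. The call of Psmb2 was lost in 9 of 16 alternatives, among them the 3 scalings, removal of the length trend and the fits without DMSO replicate 1, OTX-015 replicate 2 or either RVX-208 library. The median log2 fold change was -0.30 and -0.21, and 0 of the 7 rose. Psmb4, a structural beta subunit, stood at 186 ± 30.9 RPKM in DMSO, 191 ± 12.8 RPKM with OTX-015 and 214 ± 31.4 RPKM with BBC1115 (limma adjusted p = 0.786 and 0.163), and with BBC1115 it passed as higher after upper-quartile scaling and quantile normalization, as TPM, with the length trend removed, and without DMSO replicate 1 or BBC1115 replicate 2. With OTX-015, Psmb4 passed as higher after quantile normalization, as TPM and with the length trend removed (log2 fold change 0.28, 0.23 and 0.26). Psmb1 stood at 235 ± 21.9, 214 ± 12.9 and 228 ± 23.8 RPKM in DMSO, OTX-015 and BBC1115, which overlapped. It passed as higher with OTX-015 after quantile normalization (log2 fold change 0.12, limma adjusted p = 0.0226) and with BBC1115 after upper-quartile scaling (0.21, limma adjusted p = 0.0426).

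In the regulatory particle the ATPases and the other subunits differed in how many genes were called. All 6 ATPase genes fell with both compounds, with a median log2 fold change of -0.31 with OTX-015 and -0.58 with BBC1115. Of all genes tested, 40% fell with OTX-015 and 49.3% with BBC1115. With BBC1115 the calls of 5 of the 6 were made under all settings, and with OTX-015 those of 2, Psmc2 and Psmc4. After upper-quartile scaling the medians were -0.12 and -0.33, and 3 and 5 of the 6 fell, where 30.7% and 39.7% of all genes did. After quantile normalization the medians were -0.05 and -0.37, and 2 and 5 fell (32% and 38.5% of all genes). Psmc5 stood at 116 and 114 RPKM in DMSO, 114 and 107 RPKM with RVX-208, 90 and 80 RPKM with OTX-015 and 68.5 and 69.2 RPKM with BBC1115, and it fell 1.67-fold with BBC1115 (limma adjusted p = 1.25e-05). Psmc4 stood at 99.4 and 94 RPKM in DMSO, 84.9 and 89.2 RPKM with RVX-208, 77.6 and 69.9 RPKM with OTX-015 and 63.9 and 54.8 RPKM with BBC1115. In both genes the BBC1115 libraries were the lowest and those of OTX-015 the next.

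Of the 11 other subunits of the regulatory particle, 5 fell with OTX-015 and 0 rose, while 5 fell and 3 rose with BBC1115. The falls made up 45.5% in each case, near the 40% and 49.3% of all genes. With OTX-015 the direction of the counts depended on the scaling, with 1 fall and 4 rises after upper-quartile scaling and 1 fall and 5 rises after quantile normalization. With BBC1115, 3 fell and 5 rose under either. Their median log2 fold change was -0.12 and -0.22, near that of all genes, and 0.07 and 0.04 after upper-quartile scaling. The 3 that rose with BBC1115 were Psmd8 and Psmd3, subunits of the lid, and Psmd2, a scaffold of the base that receives shuttle factors. Psmd8 stood at 140 and 122 RPKM in DMSO, 121 and 124 RPKM with RVX-208, 150 and 144 RPKM with OTX-015 and 184 and 166 RPKM with BBC1115. The BBC1115 libraries were the highest, and the rise was 1.33-fold (131 ± 12.8 to 175 ± 13.3 RPKM, log2 fold change 0.41, 95% interval 0.21 to 0.62, limma adjusted p = 0.00193). Psmd3 stood at 92.1 and 85.7 RPKM in DMSO, 88.4 and 84.7 RPKM with RVX-208, 99.4 and 86.5 RPKM with OTX-015 and 111 and 109 RPKM with BBC1115, a 1.24-fold rise (limma adjusted p = 0.00879). Psmd2 stood at 104 and 110 RPKM in DMSO, 113 and 117 RPKM with RVX-208, 127 and 115 RPKM with OTX-015 and 128 and 126 RPKM with BBC1115. It rose 1.19-fold with BBC1115 (limma adjusted p = 0.0185), a call lost without DMSO replicate 1 and without either BBC1115 library. With OTX-015, Psmd8, Psmd3 and Psmd2 had log2 fold changes of 0.16, 0.06 and 0.17 that did not pass, and all 3 passed as higher after upper-quartile scaling, after quantile normalization and as TPM.

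The falls of Psmd1 and Psmd6 with BBC1115 were called under all settings, as were those of Psmd7 with both compounds. Psmd1, a scaffold of the base, went from 92.5 ± 4.46 RPKM in DMSO to 77.7 ± 5.05 RPKM with OTX-015 and 65.8 ± 2.69 RPKM with BBC1115. Psmd7, the partner of the deubiquitinase Psmd14 in the lid, went from 111 ± 0.79 RPKM to 80.2 ± 4.72 RPKM and 83.3 ± 3.5 RPKM. Psmd11, a lid subunit, stood at 59.9 ± 1.24, 59.7 ± 3.26 and 57.7 ± 0.948 RPKM. Its log2 fold change with OTX-015 had a 95% interval of -0.18 to 0.17 as deposited. After upper-quartile scaling Psmd11 passed as higher with OTX-015 (0.18) and BBC1115 (0.20), and likewise after quantile normalization (0.23 and 0.17).

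The alternative activators split in direction. Psme4, a large single-chain activator found in the nucleus, was the only one of the 47 genes that rose with both OTX-015 and BBC1115 in the values as deposited. Under other treatments of the libraries it was not alone. Psmd8 and Psmd2 also passed as higher with both compounds after upper-quartile scaling, after quantile normalization, as TPM and with the length trend removed. Psme4 stood at 19.2 and 23.8 RPKM in DMSO, 27.5 and 24.2 RPKM with RVX-208, 34.1 and 32.1 RPKM with OTX-015 and 31.2 and 34.1 RPKM with BBC1115. All libraries of the 3 compounds lay above both DMSO libraries, with those of RVX-208 between. The rise was 1.54-fold with OTX-015 (log2 fold change 0.61, 95% interval 0.36 to 0.85, limma adjusted p = 0.000643) and 1.52-fold with BBC1115 (log2 fold change 0.59, 95% interval 0.34 to 0.83, limma adjusted p = 0.000532). Its longest annotated transcript, 6491 nucleotides, is the longest of the 47 genes, and the calls were also made with the length trend removed.

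Psme3, which forms the nuclear ring activator, stood at 114 and 123 RPKM in DMSO, 107 and 106 RPKM with RVX-208, 76.9 and 70.4 RPKM with OTX-015 and 70.3 and 75.5 RPKM with BBC1115. The OTX-015 and BBC1115 libraries lay well below the rest and overlapped with each other. Psme3 fell 1.61-fold and 1.63-fold with these compounds (limma adjusted p = 3.97e-05 and 1.73e-05). Psme1 and Psme2 form the interferon-inducible ring activator. Psme1 stood at 116 and 97.8 RPKM in DMSO, 102 and 101 RPKM with RVX-208, 84.2 and 82 RPKM with OTX-015 and 73.7 and 60.7 RPKM with BBC1115. It fell 1.29-fold and 1.59-fold (limma adjusted p = 0.0141 and 0.000182), and the call with OTX-015 was lost in 6 of 16 alternatives, which were upper-quartile scaling, quantile normalization, TPM and the fits without DMSO replicate 1 or either OTX-015 library. Psme2 stood at 108 and 89.5 RPKM in DMSO, 82.1 and 86 RPKM with RVX-208, 71.8 and 68.8 RPKM with OTX-015 and 71.4 and 65.7 RPKM with BBC1115, and fell 1.4-fold and 1.44-fold (limma adjusted p = 0.00145 and 0.000597). Psme2b, a copy of Psme2 that may share reads with it, went from 24.8 ± 7.28 RPKM in DMSO to 16.3 ± 0.582 and 15 ± 2.63 RPKM and was called lower with both, but not under all settings.

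The assembly genes fell into a group that moved strongly and a group that moved little. Psmg1 and Psmg2 pair as a chaperone that holds the alpha ring, and Psmg3 pairs with Psmg4. Psmg2 stood at 39.4 and 32.5 RPKM in DMSO, 28.2 and 28.3 RPKM with RVX-208, 14.1 and 13.3 RPKM with OTX-015 and 12.3 and 9.33 RPKM with BBC1115. Its groups did not overlap. Psmg2 fell 2.62-fold with OTX-015 (36 ± 4.83 to 13.7 ± 0.605 RPKM, log2 fold change -1.32, limma adjusted p = 5.85e-06) and 3.32-fold with BBC1115 (to 10.8 ± 2.1 RPKM, log2 fold change -1.65, limma adjusted p = 4.21e-07). Psmg1 stood at 31.7 and 35.7 RPKM in DMSO, 28 and 26.7 RPKM with RVX-208, 17.6 and 15.4 RPKM with OTX-015 and 18.6 and 14.4 RPKM with BBC1115. It fell 2.04-fold with each (limma adjusted p = 3.63e-05 and 1.76e-05).

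Psmg3 stood at 49.6 and 39.6 RPKM in DMSO, 32.1 and 32.2 RPKM with RVX-208, 21.4 and 22.3 RPKM with OTX-015 and 25.4 and 21.1 RPKM with BBC1115. It fell 2.04-fold and 1.92-fold (limma adjusted p = 2.84e-05 and 2.77e-05). RVX-208 libraries lay between those of DMSO and those of the other compounds for Psmg1, Psmg2 and Psmg3. Psmg3 had the largest log2 fold change with RVX-208 among the 47 genes, -0.45 (95% interval -0.71 to -0.19, unadjusted p = 0.0027 and adjusted p = 0.139 in limma), and it passed without DMSO replicate 2. Psmg4 stood at 42.3 and 29.9 RPKM in DMSO, 32.3 and 36 RPKM with RVX-208, 34.1 and 28.4 RPKM with OTX-015 and 28.4 and 23.8 RPKM with BBC1115. The log2 fold change of Psmg4 was -0.19 with OTX-015 (limma adjusted p = 0.296) and -0.44 with BBC1115 (limma adjusted p = 0.0221). The latter was lost in 6 of 16 alternatives, among them upper-quartile scaling, quantile normalization and the fits without DMSO replicate 1 or BBC1115 replicate 2.

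The chaperones of the regulatory particle, Psmd5, Psmd9 and Psmd10, had log2 fold changes between -0.14 and -0.05 with OTX-015, and 0 of the 3 passed by limma. Of these, 0 had an unadjusted p under 0.05. With BBC1115 they lay between -0.31 and 0.03, and Psmd10 passed (limma adjusted p = 0.0217), a call lost after upper-quartile scaling, after quantile normalization, with the length trend removed and without DMSO replicate 1 or BBC1115 replicate 2. Psmd5 stood at 45.2 ± 0.827 RPKM in DMSO, 42.4 ± 2.04 RPKM with OTX-015 and 46.1 ± 2.91 RPKM with BBC1115. With BBC1115 it passed as higher after upper-quartile scaling (log2 fold change 0.28) and quantile normalization (0.25). Psmc3ip, the recombination factor, went from 28.1 ± 8.42 RPKM to 15.8 ± 2.68 and 14 ± 3.13 RPKM and fell with both.

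Set side by side, the immunoproteasome had the lowest median of the role groups with both compounds. As the median of 3 genes it is the value of Psmb8. Psmb9 stood at -0.41 with OTX-015 and -0.34 with BBC1115, near the medians of the constitutive core. With BBC1115 the median log2 fold change was -1.58 for the immunoproteasome, -0.66 for the activators, -0.44 for the 7 assembly genes, -0.35 for the constitutive core and -0.33 for the regulatory particle, beside -0.249 for all genes. With OTX-015 it was -1.11 for the immunoproteasome, -0.48 for the activators, -0.42 for the constitutive core, -0.23 for the regulatory particle and -0.19 for the assembly genes, beside -0.134. Within the assembly genes, Psmg1 to Psmg4 had medians of -0.99 with OTX-015 and -0.95 with BBC1115, and Psmd5, Psmd9 and Psmd10 of -0.09 and 0.02. These medians describe lists of 3 to 17 genes and were not tested. After quantile normalization the constitutive core stood at -0.17 with OTX-015 and -0.21 with BBC1115, and the regulatory particle at 0.06 and -0.13, so the direction of the regulatory particle with OTX-015 depended on the scaling.

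**Figure D4:**
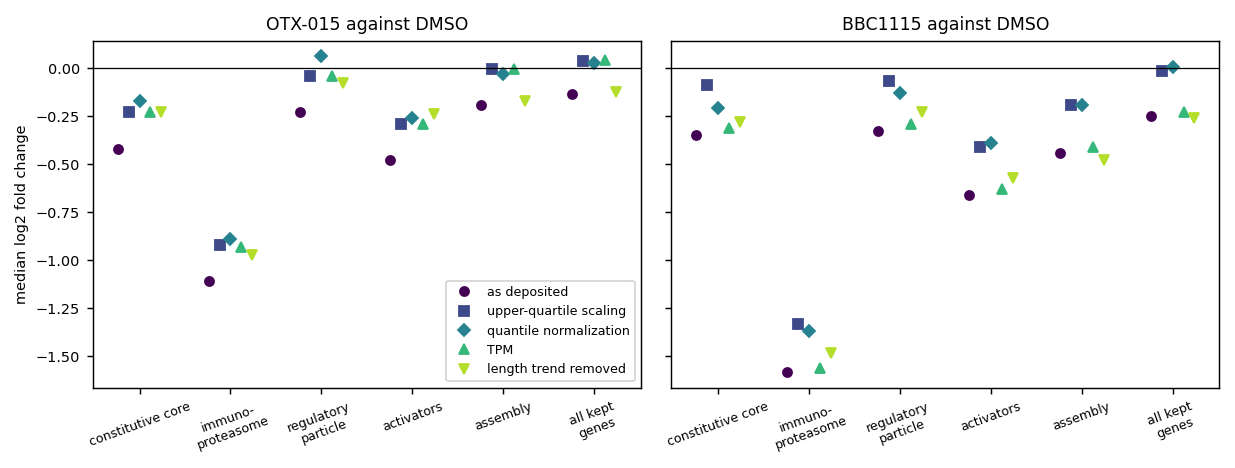
Median log2 fold change against DMSO of each role group and of all 9975 genes tested, with OTX-015 (left) and BBC1115 (right), for the values as deposited and 4 other treatments of the libraries; assembly here holds all 7 assembly genes. The immunoproteasome, whose median is the value of Psmb8, lies between -1.11 and -0.89 with OTX-015 under every treatment shown. The regulatory particle runs from -0.23 to 0.06.

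OTX-015 and BBC1115 cultures were also compared directly, at doses that are not given. BBC1115 was lower in 8 of the 47 genes and higher in 1, where 29.7% of all genes were lower and 14.2% higher. Psmb8 was 1.39-fold lower with BBC1115 (log2 fold change -0.47, 95% interval -0.70 to -0.24, limma adjusted p = 0.00432), and Psmb10 was 1.92-fold lower (log2 fold change -0.82, 95% interval -1.17 to -0.47, limma adjusted p = 0.0019). These were the only calls among the 47 that were made under all 16 alternatives. The other genes called lower were Psma6, Psmc3, Psmc4, Psmc5, Psmd1 and Psme1, and Psmd3 was called higher (limma adjusted p = 0.0451). Without OTX-015 replicate 1 or without BBC1115 replicate 2, the calls of these other lower genes were lost. A smaller share of all genes was also called lower in those fits. Without either RVX-208 library some were lost, among them Psma6 and Psmd1. For Psmg1 the log2 difference had a 95% interval of -0.27 to 0.26, and for Psme4 of -0.26 to 0.22.

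Other genes of the pathway, from a list of 40 tested genes outside the name rule, rose in 12 and fell in 14 cases with OTX-015 and rose in 13 and fell in 14 with BBC1115. The rises made up 30% and 32.5% of the list, beside 24.2% and 26.4% of all genes, and the falls 35% in each case, beside 40% and 49.3%. After upper-quartile scaling the list held 20 rises and 11 falls with OTX-015, where 35.7% of all genes rose and 30.7% fell. With BBC1115 it held 21 rises and 10 falls, where 37.5% of all genes rose and 39.7% fell. With RVX-208 0 passed by limma, and at an unadjusted p under 0.05, 3 were higher and 1 was lower. Nfe2l1, the transcription factor that raises proteasome genes when the protease is impaired, stood at 29.3 and 33.4 RPKM in DMSO, 33.7 and 33.8 RPKM with RVX-208, 40.3 and 35.2 RPKM with OTX-015 and 52.3 and 56.8 RPKM with BBC1115. BBC1115 libraries were clearly the highest. The rise of Nfe2l1 was 1.74-fold with BBC1115 (limma adjusted p = 2.03e-05). With OTX-015 it was 1.21-fold (limma adjusted p = 0.0339), a call lost in 7 of 16 alternatives, among them the fits without DMSO replicate 1, OTX-015 replicate 1 or either RVX-208 library. Ubb, a ubiquitin gene, rose with BBC1115 from 807 ± 73.1 to 1167 ± 132 RPKM, under all settings.

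Of 6 subunits and assembly factors that the name rule misses, 2 fell with OTX-015 (Adrm1 and Pomp) and 1 with BBC1115 (Psmf1), and 0 rose. The falls made up 33.3% and 16.7%, below the 40% and 49.3% of all genes. Adrm1, a ubiquitin receptor of the regulatory particle, stood at 74.1 ± 1.16 RPKM in DMSO, 62 ± 3.31 RPKM with OTX-015 (limma adjusted p = 0.0182) and 68.8 ± 1.8 RPKM with BBC1115 (limma adjusted p = 0.26). After upper-quartile scaling Adrm1 passed as higher with BBC1115, and the call with OTX-015 was lost under upper-quartile scaling, quantile normalization and TPM, with only the 2 groups compared, and without DMSO replicate 1 or OTX-015 replicate 2. Pomp, a chaperone that completes the core, stood at 182 ± 18.9, 151 ± 9.94 and 163 ± 11.7 RPKM in these groups (limma adjusted p = 0.0305 and 0.158). The call of Pomp with OTX-015 was lost in 9 of 16 alternatives, among them the fits without DMSO replicate 1, OTX-015 replicate 2 or either RVX-208 library.

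Shuttle factors, which carry tagged proteins to the proteasome, moved in both directions. Ubqln4 fell from 23.2 ± 1.43 RPKM to 11.6 ± 0.923 RPKM with OTX-015 and 8.52 ± 0.628 RPKM with BBC1115. Its relative Ubqln2 rose from 12.2 ± 0.704 RPKM to 22.9 ± 1.05 and 26.6 ± 0.301 RPKM. The calls of Ubqln4 and Ubqln2 were made under all settings with both compounds.

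Among the 6 genes that load the peptides cut by the immunoproteasome onto MHC class I, 4 fell with both compounds and B2m rose with BBC1115. The falls made up 66.7%, beside 40% of all genes with OTX-015 and 49.3% with BBC1115. The rise of B2m made up 16.7%, beside 26.4% of all genes with BBC1115. Tap2, a subunit of the peptide transporter, stood at 70.4 and 68.4 RPKM in DMSO, 62.3 and 63 RPKM with RVX-208, 19.2 and 18.9 RPKM with OTX-015 and 11.8 and 10.7 RPKM with BBC1115. Its groups were well apart for OTX-015 and BBC1115, with falls of 3.64-fold and 6.18-fold (limma adjusted p = 2.57e-08 and 6.97e-10). Tapbpl, a peptide editor, fell from 8.44 ± 0.0859 RPKM to 3.68 ± 0.279 and 1.77 ± 0.511 RPKM.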

How the data were processed

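RNA-seq of 8 libraries in 4 groups was analysed. The authors deposited a table of RPKM for 20484 genes, and per the submitters' processing notes STAR, Cufflinks and mm10 were used, without versions or roles. Annotation and strand setting are not stated. All 8 columns were used. RPKM values carry no read counts, so depth was only estimated, from values that stem from a single read.

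Genes with at least 1 RPKM in at least 2 libraries were kept (9975). On log2(RPKM + 1), limma 3.58.1 (R 4.3.3, trended variance) estimated group means from all libraries; residual degrees of freedom were 4 and prior ones 6.81. Tests were two-sided with Benjamini-Hochberg adjustment over the kept genes. Folds are ratios of mean RPKM, and the pseudocount shrinks log2 fold changes of low genes. The fit was checked on simulated data. P-values measure the spread between these cultures only.

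Genes given with every library's values are the immunoproteasome and counterpart genes, the Psmg and Psme genes, the 5 largest called changes in each direction against DMSO, and of the pathway list Nfe2l1, Adrm1, Pomp and the 4 largest changes; others were named after their values were seen. Some genes of the pathway list are not reported here by name, but count in its totals. Members and lists were chosen with earlier results of these data known. Alternatives were another pseudocount, no filter, 3 scalings, a replicate block, 2 groups only and each library left out; removal of a length trend was added after the data were seen. Positions and transcript lengths are from GENCODE M21 (GRCm38).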

Additional observations from a re-analysis of the deposited data

How the results depend on the processing

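The number of proteasome genes called depended on the scaling between libraries. With OTX-015 against DMSO, 32 fell and 1 rose as deposited, 20 and 5 after upper-quartile scaling, 19 and 8 after quantile normalization, 21 and 5 as TPM, and 4 rose with the length trend removed; leaving out each library gave 20 to 34 falls and 1 to 2 rises. With BBC1115 against DMSO, 33 fell and 4 rose, with 9 rises after upper-quartile scaling and 8 after quantile normalization, and 25 to 36 falls and 3 to 4 rises without single libraries. With RVX-208 against DMSO the range without single libraries was 0 to 6 falls and 0 to 1 rises. For BBC1115 against OTX-015, 8 were lower and 1 higher; quantile normalization gave 16 and 0, TPM 23 and 0, removal of the length trend 18 and 2, upper-quartile scaling 4 higher, and no filter or only the 2 groups compared 0 higher, while single libraries left out gave 2 to 10 lower and 0 to 2 higher. Adrm1 changed direction with BBC1115 against DMSO after upper-quartile scaling (0.15 on the log2 scale, called higher). The log2 ratio of Psmb10 to Psmb7 with BBC1115 less DMSO was -1.76 in place of -1.99 with a pseudocount of 1. The causes were not tested. With the replicate block, 13 genes were lower and 2 higher in BBC1115 against OTX-015 (31.3% and 16.2% of all genes), and other counts stayed within 1.5 times. Replicates of the same number in DMSO and BBC1115 deviated together across genes, at r = 0.524. In the other pairs of groups r lay between -0.0845 and 0.0551. The labels name no batch shared by replicates of the same number. The numbers were therefore not taken to pair the libraries in the main fit, and the replicate block served as an alternative.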
